A study of Mus musculus with 32 samples.

Results

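The soma of KCl-treated hippocampal neurons was compared between Mettl3 KO and WT cultures. The comparison rested on 2 Mettl3 KO and 2 WT RNA-seq libraries, which were 4 of the 16 RNA-seq libraries and of the 32 samples of the study. Genes averaging at least 10 counts over these 4 libraries were tested, which left 24038 of the 55573 genes in the deposited count table. Library totals were 59866795 and 45457348 counts for Mettl3 KO replicates 1 and 2 and 54397025 and 70313406 counts for WT replicates 1 and 2. Values per library are given as CPM, counts relative to the library total after scaling by TMM (a factor that balances the composition of libraries), always in the order of replicates 1 and 2.

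Neurons were isolated from newborn mice and kept for 15 days on a microporous membrane. Cell bodies could then be scraped from its upper side and neurites from its lower side. Per the study's methods, the soma fraction can also hold neurites that did not pass the pores. The WT neurons came from C57BL/6 mice and the Mettl3 KO neurons from the Mettl3Flox/Flox line. Per the study's methods both received an AAV carrying Cre and dTomato under the neuronal hSyn promoter, so the WT cultures also expressed Cre and cells that do not use this promoter were not targeted. Cultures of both genotypes were silenced for 16 h with tetrodotoxin at 1 µM, which blocks sodium channels, together with D-AP5 at 50 µM, an NMDA receptor blocker, and then depolarised with 55 mM KCl for 2 h. Hippocampi of a single litter were pooled for each culture, and the 2 replicates of a genotype came from distinct litters. The strain, litter and Mettl3 genotype cannot be told apart in this design, and with 2 libraries per group the p-values reflect the spread between these libraries only.

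METTL3 is the catalytic subunit of the nuclear complex that methylates adenosines of nascent mRNAs at N6, mostly within RAC motifs (R is A or G). The mark, m6A, is bound by YTH-domain proteins and can change how long an mRNA persists, where it goes and how it is translated. Depolarisation with KCl opens voltage-gated calcium channels and induces immediate early genes. The comparison addressed whether RNA abundance in the soma fraction differed without the methyltransferase after this stimulus.

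Sites of m6A in these cultures were mapped by the study with DART-seq, in which APOBEC1-YTH deaminates the cytidine that follows a methylated adenosine. The deposited sites (18231 on the main chromosomes of GRCm38) all fell on a C preceded by a purine and A. A 21-base window is shown for Mettl3 itself, for 5 genes with sites whose KO and WT levels were at least 4-fold apart in every library pair, and for 2 genes of the groups described further on, each around the gene's site with the highest deposited C-to-U fraction. Capitals mark the RAC motif, whose C is the edited base. Windows read 5′ to 3′ on the strand of the RNA.
Mettl3 (chr14:52296125-52296145, minus strand): gattgagaGACtgtcccctgg
Rtn4rl1 (chr11:75267073-75267093, plus strand): aggggaccAACattcttagat
Serinc3 (chr2:163625398-163625418, minus strand): ataaagctGACcagagtctcc
Kcnj10 (chr1:172372770-172372790, plus strand): ggagatgaAACtcagagtctt
Slc13a3 (chr2:165405580-165405600, minus strand): tgactcagAACtctgctggta
Sox2 (chr3:34650758-34650778, plus strand): cggcggaaAACcaagacgctc
Map2 (chr1:66440353-66440373, plus strand): cccccaaaGACctcttgatca
Gria2 (chr3:80688074-80688094, minus strand): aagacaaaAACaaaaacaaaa
Most windows lay in 3′ UTRs, except that of Sox2, in its coding exon, and that of Mettl3, which transcript models place in a 3′ UTR or in coding sequence. The authors' mean C-to-U level over WT libraries ran from 2.75% for the Serinc3 site to 12.8% for the Map2 site. Map2 carried 16 deposited sites and Gria2 9, while Serinc3 and Sox2 carried 1 each. Because sites were called against Mettl3 KO libraries, the level of each RNA in KO bears on its sites, and these levels are given below.

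Mettl3 KO replicate 1 stood apart from the other 3 libraries. Across 15701 genes averaging at least 100 counts, the SD of the log2 ratio between replicates was 0.986 in Mettl3 KO and 0.366 in WT. Pearson's r of log2 CPM across genes was 0.887 between the KO replicates and 0.986 between the WT replicates. Mettl3 KO replicate 2 correlated with the WT libraries at 0.966 and 0.970, above its correlation with KO replicate 1. KO replicate 1 also held far more RNA of glial marker genes (below), so results are given by library and with and without it. Counts of list members for which a given library was the lowest or highest describe the order of the libraries only. No share over all genes was taken for such counts, and KO replicate 1 was the library most unlike the others.

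**Figure D1:**
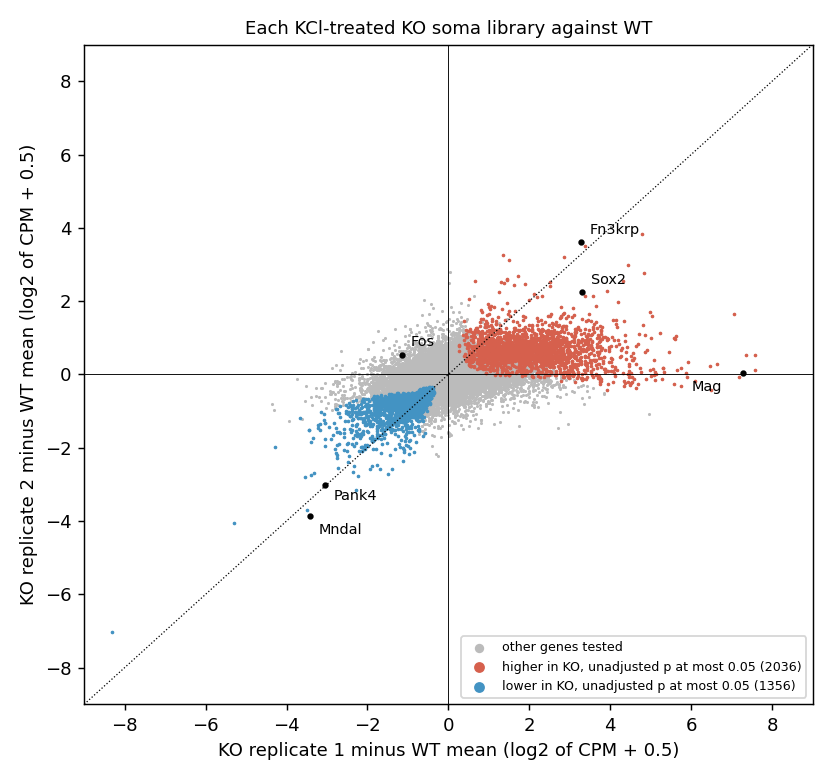
Each point is 1 of 24038 genes, with the log2 difference (CPM + 0.5) from the WT mean in Mettl3 KO replicate 1 on the horizontal axis and in replicate 2 on the vertical axis, and the dotted line marks equal differences. The 2036 genes higher at the unadjusted threshold spread along the horizontal axis, with Mag near 0 for replicate 2, whereas Mndal, Pank4, Fn3krp and Sox2 lie far from 0 in both libraries.

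No gene passed edgeR's quasi-likelihood test at an adjusted p of 0.05 and 1.5-fold, in either direction, and the smallest adjusted p was 0.309. At an unadjusted p of at most 0.05 and 1.5-fold, 2036 genes (8.47% of those tested) were higher in Mettl3 KO and 1356 (5.64%) were lower. Each count of list members called in the 4-library fit below is to be read beside these shares of all genes. With DESeq2, 889 genes (3.7%) were called higher and 358 (1.49%) lower at an adjusted p of 0.05. The median log2 difference over all genes was 0.02. Since no gene passed the adjusted edgeR test, genes are described below by the unadjusted threshold, and "higher" or "lower" refers to the 4 libraries compared. Log2 differences are edgeR estimates of KO minus WT ± SE, and adjusted p is the edgeR value after Benjamini-Hochberg adjustment over all genes tested.

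The 2 KO libraries contributed unequally to these counts. Of the 2036 genes higher at the unadjusted threshold, 908 (44.6%) were less than 1.5-fold above the WT mean in KO replicate 2. Of the 1356 lower genes, 160 (11.8%) were less than 1.5-fold below the WT mean in that library. The KO and WT libraries did not overlap for 5681 genes higher in KO (23.6%) and 5824 lower (24.2%). They did not overlap for 1902 of the 2036 higher genes and for all 1356 lower genes. A statement below that a lower gene was lower in both KO libraries therefore repeats its call. All 4 KO-to-WT ratios reached 1.5-fold for 857 genes higher (3.57%) and 951 lower (3.96%). Without KO replicate 1, edgeR called 778 genes higher and 951 lower at an adjusted p of 0.05, with the lone KO library assumed to vary as the WT libraries did. Without KO replicate 2 the counts were 4971 and 4084, and without WT replicate 1 or 2 no gene passed the adjusted test and 203 and 379, or 357 and 329, genes were higher and lower at the unadjusted threshold.

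The RNA of Mettl3 (ENSMUSG00000022160, chr14:52294841-52305128, minus strand) was lower in KO. It measured 9.36 and 6.41 CPM in the KO libraries and 15.9 and 13.9 CPM in the WT libraries. Both KO libraries lay below both WT libraries, with a log2 difference of -0.92 ± 0.36 and an adjusted edgeR p of 0.343. The count covers all exons, including those outside the floxed part, and the gene overlaps Tox4 on the other strand, so the remaining reads do not measure the share of intact transcripts.

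Of the 9 m6A writer genes, 2 were lower at the unadjusted threshold (22.2%, beside 5.64% of all genes) and none was higher. Wtap, the adaptor that holds the writer complex in nuclear speckles, measured 14.3 and 18.6 CPM in KO and 26.6 and 28.5 CPM in WT (log2 -0.74 ± 0.30, adjusted p = 0.35). It did not overlap between genotypes, but both calls lay close to the threshold. Wtap no longer met it in 12 of 14 other fits, among them DESeq2 and RLE scaling, and Mettl3 in 5 of 14, among them the replicate block on the 4 libraries and a mean count of at least 100. Mettl14, the RNA-binding partner of METTL3, measured 25.6 and 13.4 CPM in KO and 14.7 and 12.8 CPM in WT, with KO replicate 2 inside the WT range. Virma, Zc3h13, Rbm15, Rbm15b and Cbll1, further subunits of the complex, and Mettl16, a separate methyltransferase, did not meet the threshold, with log2 differences from -0.35 (Zc3h13) to 0.13 (Cbll1). Among 11 readers and erasers, Ythdf3, a cytoplasmic m6A reader, was the 1 gene that met the unadjusted threshold, and it was lower. Its CPM was 46.5 and 40.1 in KO and 77.8 and 69.8 in WT (log2 -0.77 ± 0.27, adjusted p = 0.323), and the demethylases Fto and Alkbh5 had log2 differences of -0.17 and 0.47 that did not meet it. The median log2 difference was 0.11 for writers and 0.16 for readers and erasers, beside 0.02 for all genes.

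A set of 28 genes was separated by at least 4-fold in every one of the 4 KO-to-WT ratios (0.5 CPM added), a description chosen after the values were seen, with 11 higher and 17 lower in KO. All 28 differed in the same direction in untreated soma, which came from the same litters and is no independent check. There the log2 differences ran from 2.08 to 5.70 for the higher genes and from -4.90 to -0.88 for the lower ones. Of the 28, 3 higher genes and 2 lower genes carried a deposited DART-seq site, as did 22.9% of all genes compared. Among 5514 tested genes with a site, 51 (0.925%) were lower and 40 (0.725%) higher in KO by at least 2-fold in every ratio. Among 18517 genes without a site, 220 (1.19%) were lower and 133 (0.718%) higher.

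**Figure D2:**
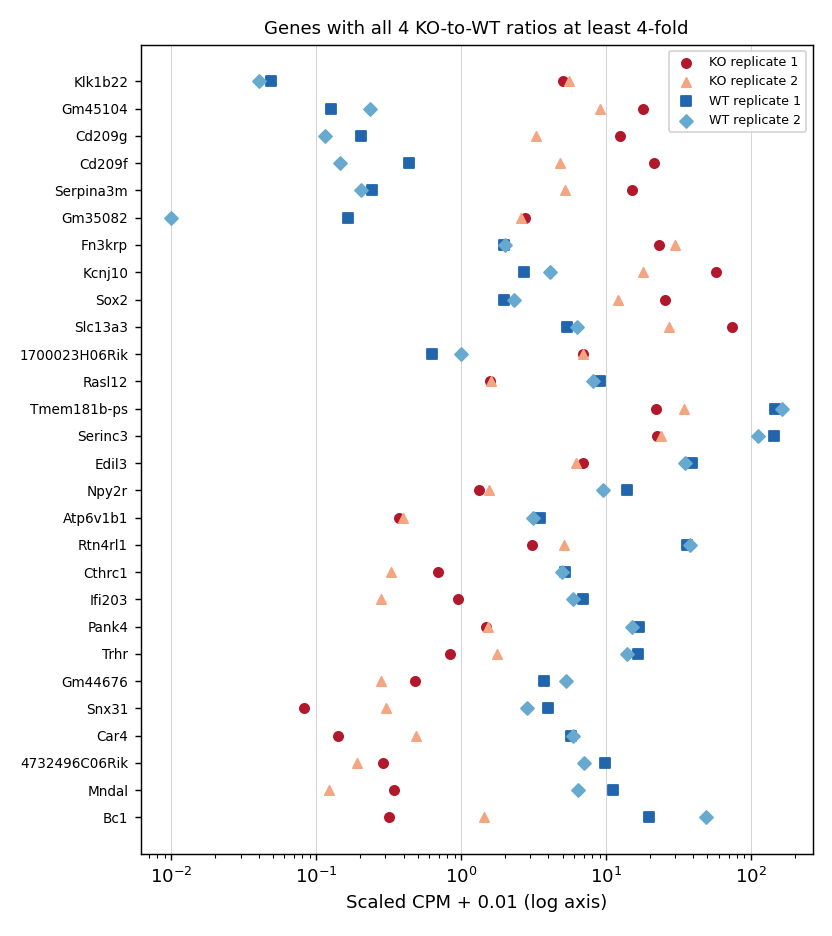
Scaled CPM plus 0.01 (log axis) in each of the 4 libraries for 28 genes with all 4 KO-to-WT ratios at least 4-fold, ordered by log2 difference, with 1 symbol per library. The KO points of Mndal lie at 0.335 and 0.113 CPM and its WT points at 11.1 and 6.39 CPM, and those of Pank4 at 1.47 and 1.52 CPM against 16.8 and 15.1 CPM.

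Several genes were lower to a similar degree in both KO libraries. Pank4, a pantothenate kinase family member, had 1.47 and 1.52 CPM in KO and 16.8 and 15.1 CPM in WT (log2 -3.41 ± 0.38, adjusted p = 0.319). Rtn4rl1, a Nogo receptor relative on axons, had 3.05 and 5.12 CPM in KO and 36.3 and 37.8 CPM in WT (log2 -3.18 ± 0.38, adjusted p = 0.319). Serinc3, a multipass membrane protein, had 22.3 and 23.9 CPM in KO and 144 and 111 CPM in WT (log2 -2.46 ± 0.30, adjusted p = 0.319). In each of these genes the KO replicates differed from each other far less than from WT. Edil3, a secreted integrin ligand, behaved likewise, with 6.92 and 6.18 CPM in KO and 39.2 and 34.8 CPM in WT (log2 -2.50 ± 0.30, adjusted p = 0.319).

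Bc1, a neuronal noncoding RNA that represses translation near synapses, measured 0.306 and 1.43 CPM in KO and 19.8 and 49.1 CPM in WT (log2 -5.34 ± 0.89). Its replicates spread more widely than those of Pank4, in both genotypes. Mndal and Ifi203, interferon-inducible genes side by side on chromosome 1 whose exons overlap, were at 0.335 and 0.113 and 0.933 and 0.272 CPM in KO, against 11.1 and 6.39 and 6.93 and 5.93 CPM in WT. The counting let reads with several positions count in each, so members of such families are uncertain individually. The remaining genes among the 15 with the largest fitted decreases included the receptors Trhr (log2 -3.57), Npy2r (-3.03) and Ackr3 (-3.19), the channel Trpc6 (-3.06), the carbonic anhydrase Car4 (-4.29) and the proton pump subunit Atp6v1b1 (-3.13). Snx31 (-4.26) and the secreted protein Cthrc1 (-3.32) were also among them. Each of these last 8 genes was below 2 CPM in both KO libraries.

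In the other direction, Fn3krp (ENSMUSG00000039253, chromosome 11), a kinase that removes sugars from glycated proteins, measured 23.3 and 29.9 CPM in KO and 1.95 and 1.98 CPM in WT. The log2 difference was 3.76 ± 0.36 with an adjusted edgeR p of 0.309. Adi1, an enzyme of methionine salvage, measured 44.4 and 45.8 CPM in KO and 11.2 and 10.3 CPM in WT (log2 2.07 ± 0.28, adjusted p = 0.319). For both genes the KO replicates were close together and several times above WT. Klk1b22, a kallikrein-family gene, had 344 and 244 reads in KO and 2 in each WT library, too few for a fold. The C-type lectins Cd209f and Cd209g, neighbours on chromosome 8, were at 21.5 and 4.78 and 12.5 and 3.28 CPM in KO and at 0.428 and 0.135 and 0.195 and 0.105 CPM in WT. Serpina3m, a serine protease inhibitor whose exons overlap Serpina3k, was at 14.95 and 5.16 CPM in KO and 0.234 and 0.195 CPM in WT. These last genes belong to families of near-identical copies, and KO replicate 1 exceeded replicate 2 in each of the 3.

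Sox2, a transcription factor of neural progenitors and astrocytes, was higher in both KO libraries, at 25.4 and 12.1 CPM against 1.97 and 2.31 CPM in WT (log2 3.13 ± 0.49, adjusted p = 0.319). The potassium channel Kcnj10 and the dicarboxylate transporter Slc13a3, both used by astrocytes and named here after their values were seen, followed the same order, with 57.2 and 18.1 and 74.4 and 27.1 CPM in KO and 2.71 and 4.07 and 5.38 and 6.26 CPM in WT. Mettl3 KO replicate 1 was above replicate 2 in each of these genes. Without KO replicate 1 the log2 difference of Sox2 was 2.49.

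Marker genes of glia and dividing cells were higher in Mettl3 KO, and for most of them only KO replicate 1 stood well above WT. Of 12 oligodendrocyte lineage markers, 11 were higher at the unadjusted threshold and none was lower, beside 8.47% and 5.64% of all genes. Their summed level was 4819 and 139 CPM in KO and 100.03 and 103 CPM in WT. KO replicate 1 thus held nearly all of the excess, and the list's median log2 difference from WT was 5.92 in that library and 0.11 in KO replicate 2. In bulk RNA more cells of a type and more RNA per cell cannot be told apart.

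**Figure D3:**
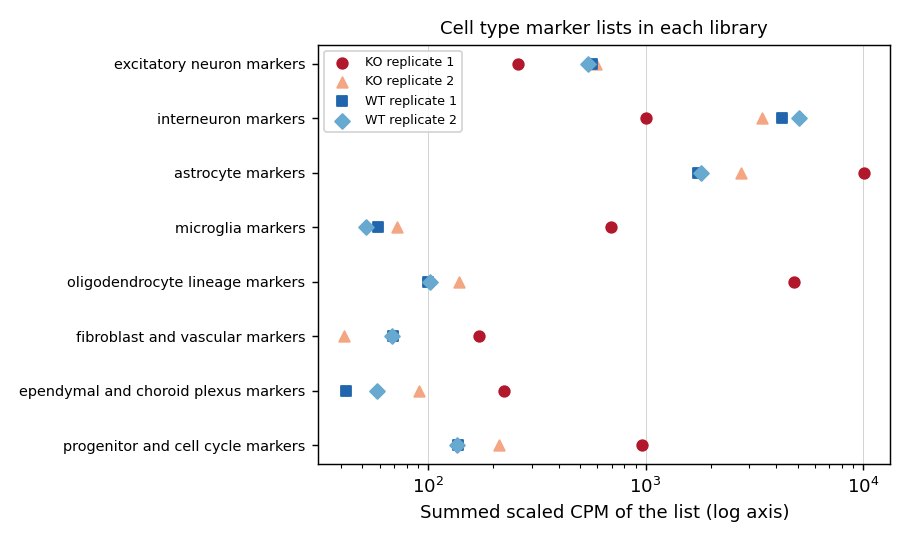
Summed scaled CPM (log axis) of 8 cell type marker lists in each library. Mettl3 KO replicate 1 lies right of the other 3 libraries for all glial and progenitor lists (oligodendrocyte lineage 4819 CPM against 100 to 139 CPM) and left of them for excitatory neuron and interneuron markers.

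The genes with the largest fitted increases were mostly of this kind. Mag, a myelin glycoprotein, measured 142 and 0.453 CPM in KO and 0.428 and 0.420 CPM in WT. Cldn11, a myelin tight junction protein, measured 151 and 0.838 CPM in KO and 0.526 and 0.330 CPM in WT. For both genes 1 library was high and 3 were low. The lineage factors Olig1 and Nkx2-2, the receptor Gpr17 and the fatty acid hydroxylase Fa2h were also by far highest in KO replicate 1. So were the ligand Bmp4, the mitotic cyclin Ccnb1 and Tmem255b. Fitted log2 differences of these genes ran from 6.10 (Tmem255b) to 7.09 (Bmp4). Zfp488, an oligodendrocyte transcription factor, had 1855 reads in KO replicate 1 and 4, 3 and 2 in KO replicate 2 and the WT libraries. Olig1 was also above WT in KO replicate 2, at 626 and 14.4 CPM in KO against 3.76 and 4.76 CPM in WT, and without KO replicate 1 its log2 difference was 1.74. For Nkx2-2, at 8.42 and 0.204 CPM in KO and 0.0195 and 0.0900 CPM in WT, that difference was 1.76 from few reads and did not meet the threshold.

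Microglia and astrocyte markers were also higher. Of 12 microglia markers, 9 met the unadjusted threshold, with a summed level of 690 and 72.1 CPM in KO and 58.9 and 51.9 CPM in WT. Aif1, an actin-binding protein of microglia, was at 14.4 and 2.60 CPM in KO and 1.11 and 0.600 CPM in WT, and C1qa, a complement subunit, at 104 and 3.85 and 2.03 and 1.26 CPM. Of 12 astrocyte markers, 7 were higher, with a summed level of 10151 and 2754 CPM in KO and 1744 and 1790 CPM in WT. KO replicate 2 was above WT as well, by a list median of 0.68 on the log2 scale. That median was 0.50 for the microglia markers and 0.64 for the ependymal and choroid plexus markers described below. Gfap, the intermediate filament of astrocytes, measured 6763 and 1173 CPM in KO and 701 and 645 CPM in WT (log2 2.56 ± 0.84, adjusted p = 0.319), and without KO replicate 1 its log2 difference was 0.79.

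Progenitor and cell cycle markers followed, with 11 of 16 higher and none lower. Vim, an intermediate filament of progenitors and glia, was at 451 and 61.2 CPM in KO and 26.02 and 23.6 CPM in WT, and Nes, nestin, at 37.03 and 11.3 and 3.54 and 5.69 CPM. Both were higher in both KO libraries. The mitotic genes Top2a (90.5 and 0.951 CPM in KO, 0.837 and 1.26 CPM in WT) and Cdk1 (37.5 and 0.0679 CPM in KO, 0.273 and 0.150 CPM in WT), in contrast, were high in KO replicate 1 alone. Of 10 ependymal and choroid plexus markers 5 were higher, among them the ciliogenesis factor Foxj1 at 149 and 50.3 CPM in KO and 13.5 and 31.4 CPM in WT. Of 14 fibroblast and vascular markers 4 were higher, among them Igfbp7 (log2 2.78), and 1 was lower. The lower gene was the pericyte regulator Rgs5, at 15.4 and 14.9 CPM in KO and 41.2 and 31.6 CPM in WT. The median of these 14 markers was 1.88 in KO replicate 1 and -0.13 in KO replicate 2. Over the other fits the log2 difference of Igfbp7 went down to 0.74. Among 6 sex-linked genes, the X-inactivation RNA Xist and its antisense Tsix were higher in KO (181 and 47.1 against 16.3 and 23.01 CPM for Xist). All 4 Y-linked genes were detected in every library and did not meet the threshold in either direction.

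The neuronal identity of the cultures was evident in all libraries, but neuronal markers were lowest in KO replicate 1. The 10 excitatory neuron markers summed to 260 and 593 CPM in KO and 566 and 543 CPM in WT, and the 15 interneuron markers to 1007 and 3419 CPM in KO and 4253 and 5059 CPM in WT. KO replicate 1 was the lowest library for 9 of the 10 and 13 of the 15. Of the excitatory markers 3 were lower at the unadjusted threshold and none higher. The vesicular glutamate transporter Slc17a6 was at 31.5 and 47.8 CPM in KO and 104 and 99.3 CPM in WT (log2 -1.36 ± 0.31, adjusted p = 0.319), and the factors Neurod6 and Bhlhe22 had log2 differences of -1.40 and -0.98. Of the interneuron markers Erbb4 (-0.95) and Calb2 (-1.42) were lower and Sox6 (2.90), which oligodendrocyte precursors also express, was higher. The interneuron list's median log2 difference from WT was -1.84 in KO replicate 1 and 0.40 in KO replicate 2. For the excitatory list these medians were -0.83 and -0.26. KO replicate 2 was the highest library for 7 of the 15 interneuron markers and 4 of the 10 excitatory markers. The part of cell composition in the differences below was not tested.

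After KCl, 19 immediate early transcription factors showed no gene past the unadjusted threshold in either direction, and none by DESeq2. The KO replicates lay on opposite sides of WT. KO replicate 1 was the lowest of the 4 libraries for 14 of the 19 and KO replicate 2 the highest for 15. Summed CPM was 7541 and 23782 in KO and 13395 and 16328 in WT. Fos, a subunit of AP-1, measured 1374 and 4438 CPM in KO and 3289 and 2837 CPM in WT (log2 -0.08 ± 0.63). Npas4, a neuron-specific calcium-induced factor, measured 775 and 2225 CPM in KO and 888 and 1703 CPM in WT (log2 0.21 ± 0.62). The SE of these differences exceeds the difference itself, and the depolarised KO soma could not be distinguished from WT for these genes at this replicate spread. Without KO replicate 1, 10 of the 19 were higher at the unadjusted threshold, beside 8.19% of all genes in that fit, and none was lower, a reading that rests on a lone KO library.

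**Figure D4:**
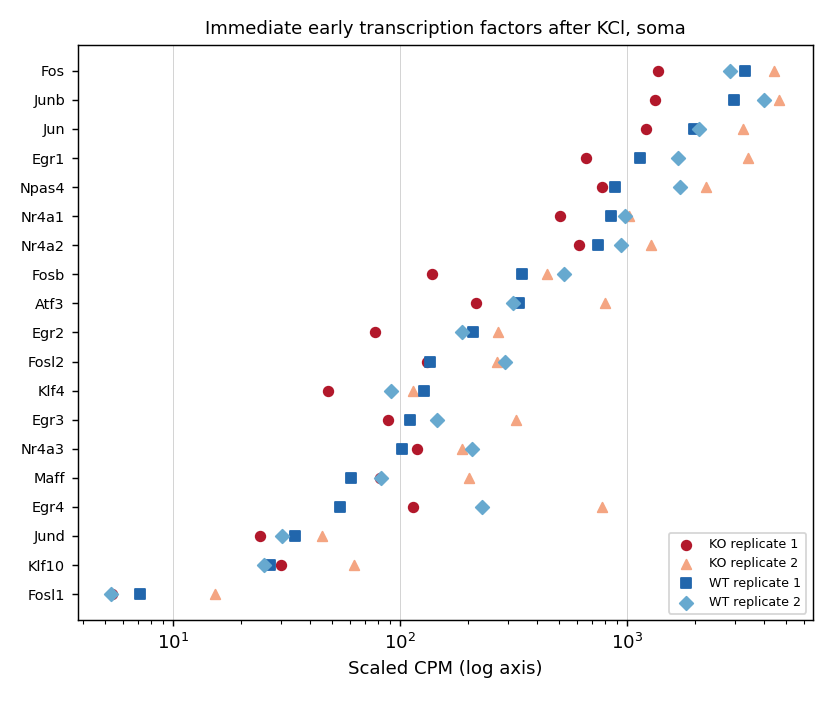
Scaled CPM (log axis) of 19 immediate early transcription factors in the 4 KCl-treated soma libraries. KO replicate 1 is the lowest library for 14 genes and KO replicate 2 the highest for 15.

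Among 24 activity-induced effectors, 4 were lower at the unadjusted threshold (16.7%, beside 5.64% of all genes) and none higher. The median log2 difference of the list was -0.15, but the KO libraries lay on opposite sides of WT. The list's median difference from the WT mean was -0.79 in KO replicate 1 and 0.11 in KO replicate 2. Ptgs2, the inducible cyclooxygenase, was at 1.59 and 1.99 CPM in KO and 4.85 and 6.99 CPM in WT (log2 -1.73 ± 0.43, adjusted p = 0.319). Pcsk1, a prohormone convertase, was at 78.9 and 51.9 CPM in KO and 119.7 and 166 CPM in WT, and Nptx2, a secreted pentraxin that gathers AMPA receptors, at 11.1 and 13.4 and 19.96 and 33.98 CPM. Both genotypes kept apart in these 3 genes, as in every gene called lower. The matricellular gene Ccn1 was at 186 and 89.5 CPM in KO and 288 and 284 CPM in WT, a log2 difference of -1.06, whereas in untreated soma it was 2.41. The difference between these 2 differences had an adjusted edgeR p of 0.985, and of 0.912 with the shared litter as a block. Arc, a synaptic capsid-like protein, and Gadd45g, a stress-induced cell cycle regulator, did not differ beyond the replicate spread, at 701 and 3174 and 497 and 1077 CPM in KO and 1459.9 and 2579.8 and 1132 and 966 CPM in WT.

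Of the lists of synaptic genes, the GABA-A receptor subunits had the largest share of lower genes. Of 12 subunits, 7 were lower (58.3%, beside 5.64% of all genes) and none higher. Gabra2 measured 46.5 and 62.3 CPM in KO and 184 and 189 CPM in WT (log2 -1.78 ± 0.30, adjusted p = 0.319), and Gabra3 11.5 and 8.96 and 35.6 and 32.3 CPM (log2 -1.73 ± 0.31). Both KO libraries lay well below WT for these α subunit genes. Gabrb2, Gabra5 and Gabra4 were lower too, at 12.8 and 39.05, 29.2 and 91.6 and 40.8 and 47.8 CPM in KO and 69.5 and 73.4, 148 and 156 and 74.6 and 65.6 CPM in WT. Gabrb1, Gabrg1, Gabrg3 and Gabrd did not meet the threshold. The list's median difference from WT was -1.58 in KO replicate 1 and -0.85 in replicate 2, beside medians of all genes near 0, and without KO replicate 1 the count of lower subunits was 8, in a fit where 9.92% of all genes were lower.

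Of 15 ionotropic glutamate receptor subunits, 4 were lower (26.7%, beside 5.64% of all genes), with a list median of -0.57. Gria2, the subunit that limits calcium entry through AMPA receptors, was at 342 and 282 CPM in KO and 699.8 and 646 CPM in WT (log2 -1.11 ± 0.33, adjusted p = 0.319). The NMDA receptor subunits Grin2b and Grin2a and the kainate receptor subunit Grik4 had log2 differences of -1.04, -1.24 and -0.78, which were -0.70, -0.70 and -0.52 without KO replicate 1. All 4 lay below both WT libraries in both KO libraries, as did every gene called lower. Of 28 voltage-gated channel genes, 7 were lower (25%) and none higher (median -0.68). The sodium channel genes Scn3a, Scn2a and Scn2b measured 29.7 and 50.3, 56.6 and 126 and 18.7 and 67.7 CPM in KO and 119.8 and 119.6, 291 and 292 and 200.1 and 151 CPM in WT. The potassium channel Kcna2 measured 4.09 and 6.90 CPM in KO and 19.7 and 11.2 CPM in WT. KO replicate 1 was the lowest library for 24 of the 28.

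For presynaptic and postsynaptic proteins the 2 KO libraries diverged. Of 23 synaptic vesicle genes, 3 were lower at the unadjusted threshold (13.0%, beside 5.64% of all genes), and KO replicate 1 was the lowest library for 22. The list median was -1.56 in KO replicate 1 and -0.13 in replicate 2. Syp, synaptophysin, was at 32.3 and 73.8 CPM in KO and 259.6 and 189 CPM in WT (log2 -2.08 ± 0.47, adjusted p = 0.319), the vesicle protein Sv2b at 38.3 and 94.6 and 194 and 208 CPM, and Syt4, a synaptotagmin of dense-core vesicles, at 219.9 and 410.1 and 764 and 824 CPM. These 3 genes were lower in both KO libraries, as was every gene called lower. Of 18 postsynaptic scaffolds and CaMKII genes, Homer2 (7.81 and 16.9 CPM in KO, 57.5 and 47.8 CPM in WT, log2 -2.09) and Dlg2 (29.8 and 62.2 CPM in KO, 127 and 135 CPM in WT, log2 -1.51) were lower. These 2 genes were 11.1% of that list, beside 5.64% of all genes. Camk2a, the α subunit of CaMKII, was at 736 and 1369.6 CPM in KO and 1907 and 1889.9 CPM in WT, and with an adjusted edgeR p of 0.443 it did not meet the threshold. Nor did Shank1 (log2 -0.54).

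Of 20 cytoskeletal genes of neurites, Map2 and Stmn2 were lower (10% of the list, beside 5.64% of all genes). Map2, the microtubule protein of dendrites, measured 292 and 375 CPM in KO and 591 and 662 CPM in WT (log2 -0.91 ± 0.34, adjusted p = 0.328). Stmn2, a tubulin-binding growth cone protein, measured 192 and 260.2 CPM in KO and 532 and 342 CPM in WT. Both were lower in every KO library, as was every gene called lower. Actb, β-actin, was at 4945 and 3548 CPM in KO and 2107 and 2849 CPM in WT and did not meet the threshold (log2 0.78 ± 0.46). Of 30 axon guidance genes 10 were lower (33.3%) and none higher, with a median of -0.62 in KO replicate 1 and -0.64 in replicate 2. Epha7, an ephrin receptor, was at 19.6 and 22.6 CPM in KO and 57.1 and 55.6 CPM in WT (log2 -1.42 ± 0.27, adjusted p = 0.319), and Robo1, a Slit receptor, at 4.50 and 5.66 and 14.5 and 18.5 CPM (log2 -1.70 ± 0.36, adjusted p = 0.319). The KO replicates were close for both. Sema3e and Nrp1, a semaphorin and a semaphorin co-receptor, had log2 differences of -1.23 and -1.19, and without KO replicate 1 the count of lower guidance genes was 16 of 30, beside 9.92% of all genes.

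Neuropeptides and region markers were lower in part. Of 19 neuropeptide and granin genes tested (Nts was under the count minimum), 4 were lower (21.1%, beside 5.64% of all genes) and none higher. Sst, the peptide of a class of interneurons, was at 24.7 and 36.5 CPM in KO and 227 and 125 CPM in WT (log2 -2.52 ± 0.42, adjusted p = 0.319). Npy was at 7.24 and 18.5 CPM in KO and 50.1 and 33.7 CPM in WT, Adcyap1 at 1.21 and 1.99 and 4.19 and 5.49 CPM, and Vip at 0.277 and 2.47 and 9.17 and 6.86 CPM. The median over the list was -1.60 in KO replicate 1 and -0.34 in replicate 2. Of 16 hippocampal region markers 4 were lower (25%). Calb1, a calcium buffer of granule and CA1 cells, was at 28.4 and 66.5 CPM in KO and 176 and 147 CPM in WT (log2 -1.77 ± 0.45, adjusted p = 0.319), and Lmo3, Satb1 and Wfs1 had log2 differences of -2.08, -0.96 and -1.18, or -1.53, -0.90 and -0.72 without KO replicate 1. All 4 genes were lower in both KO libraries, as was every gene called lower.

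For cholesterol synthesis genes KO replicate 2 was the further library from WT, with a list median of -0.90 against -0.39 in KO replicate 1. Of 24 genes, 8 were lower at the unadjusted threshold (33.3%, beside 5.64% of all genes) and none higher, and 19 were lower without overlap (24.2% of all genes). Summed CPM was 3705 and 2947 in KO and 6216 and 6183 in WT. Idi1, the isomerase of isopentenyl diphosphate, measured 141 and 76.7 CPM in KO and 349 and 273 CPM in WT (log2 -1.52 ± 0.40, adjusted p = 0.319). Msmo1, a sterol oxidase, measured 229.6 and 119 CPM in KO and 507 and 483 CPM in WT, and Fdft1, squalene synthase, 159.9 and 113 and 357 and 273 CPM. KO replicate 2 was the lowest library for 20 of the 24 genes. Without KO replicate 1, 21 of the 24 were lower at the unadjusted threshold, beside 9.92% of all genes, and in untreated soma the list's median log2 difference was -0.47 against -0.65 after KCl.

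**Figure D5:**
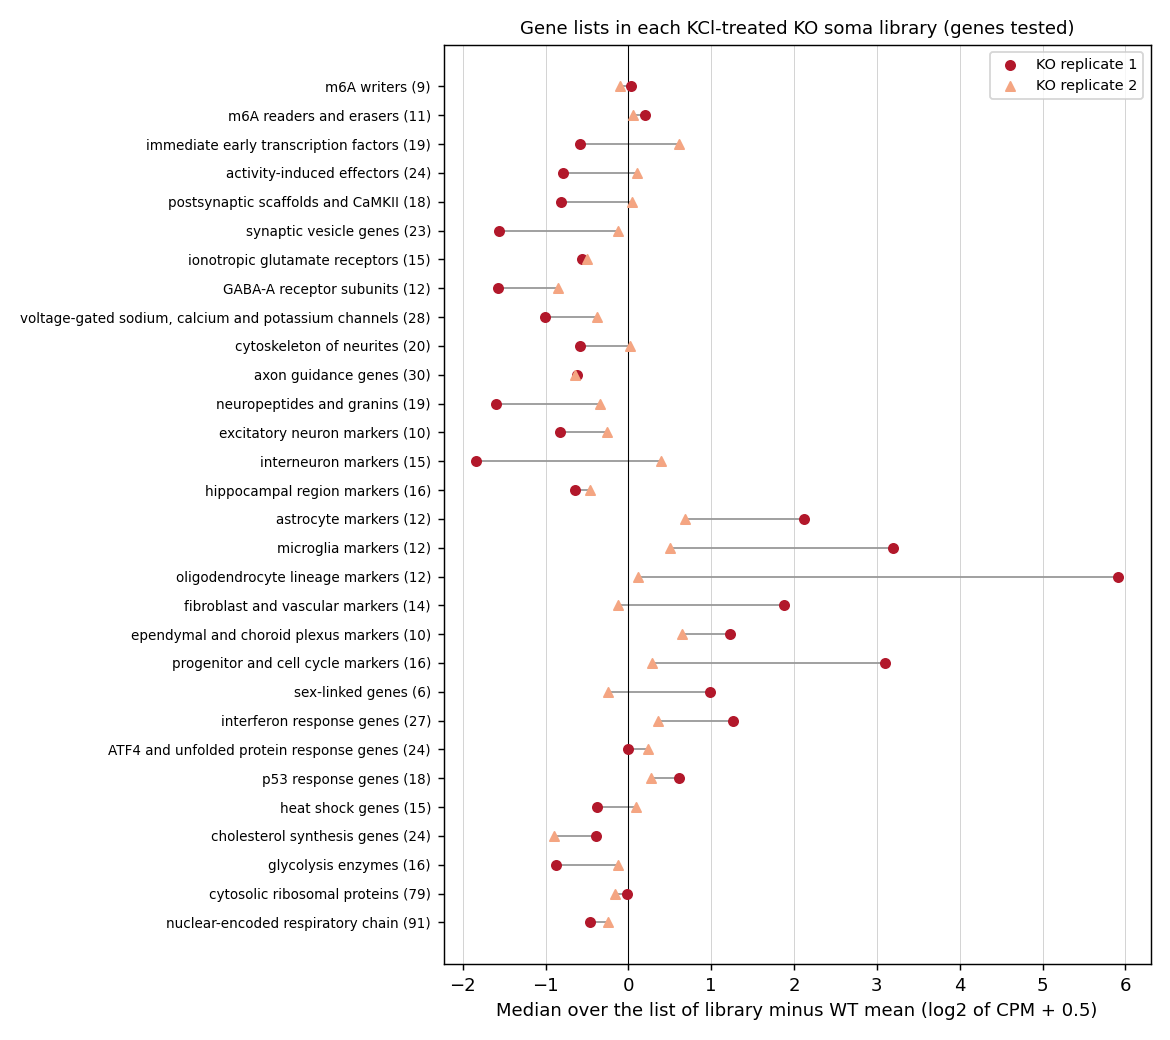
Median over each of 30 gene lists of the log2 difference (CPM + 0.5) from the WT mean, in Mettl3 KO replicate 1 (circles) and replicate 2 (triangles), with the number of genes tested in brackets. The oligodendrocyte list reads 5.92 and 0.11, the GABA-A receptor list -1.58 and -0.85, and the cholesterol list -0.39 and -0.90.

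Among 27 interferon response genes, 12 were higher at the unadjusted threshold (44.4%, beside 8.47% of all genes), 15 did not meet it and none was lower. The list does not hold Mndal and Ifi203, the interferon-inducible genes described above as lower. Usp18, which dampens interferon signalling, was at 8.82 and 3.44 CPM in KO and 1.34 and 1.05 CPM in WT, and Cxcl10, a chemokine, at 4.98 and 0.475 and 0.214 and 0.180 CPM. KO replicate 1 was the highest library for 23 of the 27, and the list median was 1.27 in that library and 0.36 in KO replicate 2. Of 18 p53 response genes 5 were higher (27.8%) and 1 lower (5.56%, beside 5.64% of all genes). Bbc3, the BH3-only cell death protein PUMA, was higher in both KO libraries and more so in replicate 2, at 52.2 and 122 CPM against 17.5 and 24.5 CPM in WT (log2 2.05 ± 0.47, adjusted p = 0.319). Pmaip1, which encodes the related protein NOXA, was lower, at 22.5 and 36.1 CPM in KO and 98.7 and 78.4 CPM in WT (log2 -1.60 ± 0.34, adjusted p = 0.319). The death receptor Fas was at 30.8 and 5.41 CPM in KO and 1.83 and 2.06 CPM in WT.

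Of 24 ATF4 and unfolded protein response genes, 4 were higher and 2 lower. Phgdh, the first enzyme of serine synthesis, was at 169 and 93.8 CPM in KO and 50.3 and 53.8 CPM in WT, and the amino acid transporter Slc7a3 at 11.5 and 10.1 and 33.03 and 26.3 CPM. The enzymes Psat1 and Shmt2 were higher, at 151 and 23.1 and 68.9 and 33.6 CPM in KO and 16.1 and 16.7 and 20.9 and 24.6 CPM in WT, and Herpud1 and Slc7a3, of the same list, were lower (-1.01 and -1.46). Of 15 heat shock genes, the co-chaperone Bag3 (34.9 and 12.2 CPM in KO, 3.08 and 4.59 CPM in WT) and the small chaperone Hspb8 (119.6 and 8.29 CPM in KO, 5.82 and 5.58 CPM in WT) were higher. Psat1 and Hspb8 were high mainly in KO replicate 1, and without it their log2 differences were 0.49 and 0.53, below the threshold. That of Shmt2 went down to 0.55 over the other fits, also below 1.5-fold. Among 16 glycolysis enzymes Hk2 (log2 -1.41, -1.29 without KO replicate 1) and Pfkl (-0.92, -0.67) were lower (12.5%, beside 5.64% of all genes). KO replicate 1 was the lowest library for all 16, and the list median was -0.87 there and -0.12 in KO replicate 2.

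Some ribosomal protein and respiratory chain mRNAs were lower. Of 79 cytosolic ribosomal protein genes 8 were lower (10.1%, beside 5.64% of all genes) and none higher, with a list median of -0.12. Rps29, a protein of the small subunit, measured 39.4 and 44.2 CPM in KO and 200.4 and 152 CPM in WT (log2 -2.07 ± 0.30, adjusted p = 0.319). Rps28, Rpl38 and Rps21 had log2 differences of -1.82, -1.57 and -1.46. These genes have processed copies that can share their reads. Of 91 nuclear-encoded respiratory chain genes 17 were lower (18.7%) and 2 higher, with a list median of -0.37, and 54 (59.3%, beside 24.2% of all genes) lay below both WT libraries in both KO libraries. Atp5k, a subunit of ATP synthase, measured 26.3 and 38.2 CPM in KO and 124 and 109.6 CPM in WT (log2 -1.86 ± 0.31, adjusted p = 0.319), and the complex I subunits Ndufa3 and Ndufa1 and the complex IV subunit Cox6c had log2 differences of -1.60, -1.30 and -1.19, or -1.37, -1.06 and -1.10 without KO replicate 1. In untreated soma the log2 differences of Rps29 and Atp5k were -1.79 and -1.75.

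Protein-coding genes averaging at least 100 counts were grouped by their number of deposited DART-seq sites. The median log2 difference was 0.13 for 7600 genes without a site, -0.03 for 1716 genes with 1 site, -0.09 for 2439 genes with 2 to 4 sites and -0.22 for 1268 genes with 5 or more. This order came from KO replicate 1, in which the medians ran from 0.17 without a site to -0.52 with 5 or more. In KO replicate 2 they were 0.02, 0.03, 0.03 and 0.03. The share higher at the unadjusted threshold was 13.3% without a site and 3.08% with 5 or more, and the share lower was 5.80% and 6.15%. Genes with more sites had larger counts, with a median mean count of 675 without a site and 6109 with 5 or more. Among the third of these genes with the largest counts, the medians were -0.16 without a site, -0.08 with 1 site, -0.15 with 2 to 4 sites and -0.25 with 5 or more, and the share lower was 11.1% without a site and 6.38% with 5 or more. The order of the medians over all of these genes was thus not kept at high counts. It was kept in the bin with the smallest counts, with medians of 0.30, 0.16, 0.15 and 0.08, the last from 32 genes. At intermediate counts the medians were 0.07, -0.02, 0.02 and -0.07. Genes with 5 or more sites had the lowest median in each count bin. In KO replicate 2 their medians were 0.25, 0.12 and 0.01 from small to large counts. Of the marker lists above WT in KO replicate 1, 10 of 12 oligodendrocyte lineage, 11 of 12 microglia and 2 of 12 astrocyte genes carried no site. Among all genes compared 22.9% carried a site, and 7600 of the 13023 genes grouped here carried none. The part of cell composition was not tested.

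By total exon length, the share higher in KO was 12.7% in the shortest of 4 equal bins of these genes and 6.73% in the longest, and the share lower was 4.45% and 7.34%. Around Mettl3 on chromosome 14, 11.1% of 171 genes within 5 Mb were higher and 3.51% lower, beside 10.7% and 5.30% of the 906 genes of chromosome 14. Supt16, 1 of these neighbours and a histone chaperone subunit named after its values were seen, was higher, at 51.9 and 38.9 CPM in KO and 12.7 and 18.003 CPM in WT (log2 1.57 ± 0.33). In a fit of all 8 soma libraries, no gene had an adjusted edgeR p of at most 0.05 for a difference between the KO effect with KCl and that in untreated soma (smallest adjusted p 0.985), and 572 of 24038 had an unadjusted p of at most 0.05. Untreated and KCl-treated cultures of a replicate came from the same litter, and with the litter as a block, a fit added after the data were seen, 0 genes passed, with a smallest adjusted p of 0.912 and 848 genes at an unadjusted p of at most 0.05.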

How the data were processed

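RNA-seq libraries were made by the authors from 50 ng of total RNA, and reads were trimmed with Flexbar and aligned to mm10 with STAR 2.7.7a, per the study's methods and the submitters' processing notes. The deposited table holds raw counts of fragments per gene from featureCounts 2.0.1, run per the file header on exons of an Ensembl GRCm38 annotation, without strand and with multiply mapped reads counted. Reads of overlapping genes on opposite strands therefore cannot be told apart. DART-seq sites, deposited with the authors' mean C-to-U fraction over WT libraries, and a deposited number of sites per RNA were used for positions and site numbers. Deposited tables of the authors' own neurite enrichment tests (fold changes and p-values) were not used.

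Counts of the 4 libraries were fitted with edgeR 4.0.16 (R 4.3.3; TMM, quasi-likelihood F-test, Benjamini-Hochberg adjustment over 24038 genes, threshold 1.5-fold and 0.05), and DESeq2 1.42.0 was an alternative. The script was tested on simulated data. Symbols and types came from GENCODE M21 (24023 of the tested genes matched), sequences from the RefSeq GRCm38.p6 genome. Values per library are CPM, and ratios had 0.5 CPM added.

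Named were Mettl3, the 15 genes with the largest increase and the 15 with the largest decrease, the 5 with the smallest p each way (symbols other than Gm or Rik, mean count of at least 100, no overlap of genotypes), up to 4 members of each list past the threshold or else the 2 with the highest CPM, genes that the study names, all m6A writers, and a few chosen after their values were seen. No gene passed at an adjusted p, so the unadjusted p was used. The comparison and the 30 gene lists were chosen with earlier results of these data known. Library totals over all 16 RNA-seq libraries were 33789183 to 71394235 counts. Alternatives were DESeq2, RLE scaling, other count filters, fits of more libraries, a replicate block and leaving out each library. Some genes are not reported here, though counts over all genes and over lists include them, and they were left out of the set with 4-fold ratios and of its count of genes with sites.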

Additional observations from a re-analysis of the deposited data

How the results depend on the processing

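With edgeR and an adjusted p of 0.05, 0 genes were higher and 0 lower on the 4 libraries, and the same was found with RLE scaling, with a mean count of at least 100, with the replicate block on the 4 libraries, and without either WT library. DESeq2 called 889 and 358 genes. Without the filter on low counts edgeR called 1887 and 628. The fit of 8 soma libraries called 4 and 8, that of 16 libraries 11 and 40, the replicate block over 16 libraries 5 and 6, and DESeq2 on 8 soma libraries 1188 and 504. All 4 ratios reached 1.5-fold, with no p, for 857 and 951 genes. Leaving out 1 library moved the counts between 0 and 4971 higher and between 0 and 4084 lower, with 778 and 951 without KO replicate 1 and the largest counts without KO replicate 2. DESeq2 on 8 libraries, the rule on ratios and the 8 soma libraries without KO replicate 1 (0 and 0) were chosen after seeing the data, and the cause of the differences was not tested.

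At the unadjusted threshold, 2036 and 1356 genes became 3840 and 2150 without the filter, which tests more genes, and 1265 and 873 at a mean count of at least 100. The replicate block gave 1639 and 1337 on 4 libraries and 1202 and 1375 on 16. Replicate numbers do not mark shared litters across genotypes, and the deviations of same-numbered libraries correlated at 0.0801 across genes. The 8 soma libraries without KO replicate 1 gave 1018 and 1166. Leaving out 1 library gave 203 to 5737 higher and 329 to 5060 lower, with 1968 and 2385 without KO replicate 1, 203 and 379 without WT replicate 1, 357 and 329 without WT replicate 2, and 5737 and 5060 without KO replicate 2.

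Part of the genes past the threshold also depended on a single library. Without KO replicate 1 the log2 difference fell from 8.23 to 1.03 for Zfp488 and from 7.39 to 0.084 for Mag. For Pank4 it was -3.41 with and -3.40 without that library. Some genes below the threshold changed sign when 1 library was left out. From without KO replicate 2 to without KO replicate 1, the log2 difference went from -1.14 to 0.53 for Fos, from -1.51 to 0.64 for Arc, from -1.06 to 0.030 for Gadd45g, from -0.73 to 0.77 for Npas4, from -0.061 to 0.27 for Mettl16, from -0.42 to 1.90 for C1ql2, from -0.37 to 1.80 for Dnajb1 and from -0.18 to 1.67 for Trib1. In the opposite order it went from 0.91 to -0.040 for Mettl14, from 0.30 to -0.11 for Rbm15b and from 0.26 to -0.0013 for Cbll1. Rbm15 ranged from -0.24 to 0.13 and Egr4 from -0.30 to 3.04. In the 8 soma libraries without KO replicate 1 the value was 0.54 for Fos, 0.67 for Arc, 0.047 for Gadd45g, -0.023 for Mettl14 and -0.089 for Rbm15b.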

Other observations

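By transcript type, 10.02% of 16072 protein-coding genes were higher and 5.74% lower in Mettl3 KO at the unadjusted threshold. Of 2660 long noncoding RNAs the shares were 6.28% and 6.02%, and of 3696 pseudogenes 4.63% and 4.55%. Of 256 genes of other types, mostly miRNA, snRNA and snoRNA genes with a median exon length of 115 bases, 3.91% were higher and 11.3% lower.

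A few genes stood out in Mettl3 KO replicate 2 rather than in replicate 1, a choice made after the values were seen. Egr4, a zinc-finger factor induced by activity, was at 114 and 777 CPM in KO and 54.2 and 229 CPM in WT. Dnajb1, an HSP40 co-chaperone, was at 290.1 and 1326 CPM in KO and 351 and 404 CPM in WT. C1ql2, a synaptic organiser secreted by granule cells, was at 59.9 and 304 CPM in KO and 71.2 and 91.1 CPM in WT, and the pseudokinase Trib1 was at 99.3 and 364 CPM in KO and 86.8 and 140.1 CPM in WT. KO replicate 2 was the highest library for each of the 4 genes, and KO replicate 1 lay within the WT range for Egr4 and Trib1 and below it for Dnajb1 and C1ql2. None of the 4 met the unadjusted edgeR threshold (adjusted p = 0.496 for Egr4).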
